A study of Homo sapiens with 12 samples.

Results

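The clustered replication-type histone genes are the HIST1, HIST2, HIST3 and HIST4 genes, which encode the histones that package newly copied DNA. They were chosen by name: 90 gene symbols of the table began with HIST1H, HIST2H, HIST3H or HIST4H, 15 of them with the ending of a pseudogene were removed, and of the remaining 75 those with at least 5 counts in at least 3 of the 12 libraries were kept. This left 51 genes of the 34643 in the table, 4 for the linker histone H1, 13 for H2A, 17 for H2B, 9 for H3 and 8 for H4. The gene just inside the limit was HIST1H2BE, with 5.002 counts in the lowest of its 3 highest libraries, and the gene just outside was HIST1H4C, with 4.978. Of the 24 symbols under the limit, 9 were at 0 counts in all libraries.

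RNA was sequenced from LNCaP cells, an androgen-responsive human prostate cancer line that grows as luminal epithelium. The cells carried a lentiviral short hairpin RNA expressed from the U6 promoter of pLKO.1-puro, either against TMEFF2 (sh_TMEFF2) or a scrambled control (sh_scramble), and all were selected with puromycin. The labels put them at about 2.5 weeks after transduction, and the study's methods give a shorter time before hormone depletion. The cells were kept for 24 hours in hormone-depleted medium. They were then given 10 nM dihydrotestosterone (DHT), the main androgen of the prostate, or ethanol vehicle for 24 hours. Each line was sequenced without (-DHT) and with (+DHT) the hormone, with 3 libraries in each of the 4 groups. The 3 repeats were separate treatments and extractions from 2 transductions, which repeat came from which transduction is not given in the labels, and a p-value therefore measures the spread between treatments. The TMEFF2 hairpin used for sequencing is not named in the labels. A library held 19450866 to 22612046 estimated counts (median 21194622).

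TMEFF2, a transmembrane protein of prostate and brain, was at 77.8, 73.8 and 103 CPM (counts scaled to a common library size) in sh_scramble -DHT and at 68.6, 39.4 and 81.7 in sh_TMEFF2 -DHT. With DHT it was at 173, 117 and 169 CPM in sh_scramble and at 142, 90.1 and 115 in sh_TMEFF2. The lines overlapped in both media, and the lower level in sh_TMEFF2 did not pass the test (log2 fold change -0.43 ± 0.25 SE, adjusted p = 0.50, without DHT and -0.41 ± 0.25, adjusted p = 0.30, with DHT, quasi-likelihood test of edgeR, p-values adjusted by the Benjamini-Hochberg method over all genes). These values cover the RNA of these libraries only. By Western blot the study reported appreciable silencing of TMEFF2 in LNCaP cells by some of its hairpins. The LNCaP markers KLK3, FOLH1, HOXB13, KRT8 and KRT18 all had at least 5759 counts in each library, but their levels differed between the groups. KLK3, the gene of prostate-specific antigen, went from 5759 to 154694 counts and was lower in sh_TMEFF2 than in sh_scramble both without DHT (-2.43 ± 0.23, adjusted p = 0.00028) and with it (-1.94 ± 0.22, adjusted p = 8.3e-05). With DHT the keratin genes KRT8 (-1.36 ± 0.09, adjusted p = 1.9e-06) and KRT18 (-1.12 ± 0.07, adjusted p = 9.0e-07) were lower in sh_TMEFF2 as well, and FOLH1 was higher (0.33 ± 0.05, adjusted p = 0.00035). The response to DHT differed between the lines by the interaction for FOLH1 (0.499, adjusted p = 0.00087), KRT8 (-1.49, adjusted p = 8.4e-05) and KRT18 (-1.07, adjusted p = 8.6e-05). The basal cell keratin KRT5 was at 0 in all 12 libraries, TP63 was at no more than 8.5 counts, and of the remaining markers of other cells COL1A1, a fibroblast collagen, was highest with 240 to 633 counts, beside 63.3 to 170 counts of the leukocyte gene PTPRC. The last 2 were also lower with DHT in sh_scramble (COL1A1 -0.61 ± 0.13, adjusted p = 0.0034, PTPRC -0.59 ± 0.19, adjusted p = 0.034), and COL1A1 also in sh_TMEFF2 (-0.68 ± 0.12, adjusted p = 0.0044). Between the lines with DHT, the comparison in which HIST2H2BE and HIST4H4 were called lower, PTPRC was called higher in sh_TMEFF2 (0.65 ± 0.19, adjusted p = 0.033) and COL1A1 was at 0.35 ± 0.13 (adjusted p = 0.081), both with groups that did not overlap. Without DHT they were at 0.49 ± 0.18 (adjusted p = 0.25) and 0.42 ± 0.12 (adjusted p = 0.14), also without overlap. The 6 markers of other cells summed to 25.3, 25.4 and 24.8 CPM in sh_scramble -DHT, 17.0, 16.4 and 18.1 in sh_scramble +DHT, 40.7, 32.9 and 28.2 in sh_TMEFF2 -DHT and 24.9, 20.1 and 21.4 in sh_TMEFF2 +DHT. Their part in the results below was not tested. In bulk RNA, fewer cells that make a message and less of the message per cell cannot be told apart.

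Most messenger RNAs end in a poly(A) tail, but the messages of replication-type histones normally end a few bases after a conserved stem-loop, which the stem-loop binding protein SLBP holds from processing to translation. Cells make these messages in S phase and destroy them when replication stops. Several of the genes also have a poly(A) signal further downstream and can make longer, tailed transcripts, which are known from cells that have left the cell cycle. Whether the libraries were made by poly(A) selection or by depletion of ribosomal RNA is not given in the sources used here.

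The stem-loop was read from the GRCh38 genome within 150 bases after the stop codon. All 47 protein-coding members held it, 22 to 67 bases after the stop codon, with at most 3 mismatches to the letters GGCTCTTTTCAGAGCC on the sense strand, the 16 bases with complementary ends that most members hold there, and 29 of them matched without a mismatch. The same search found it in 6 of 4053 other genes (0.148%), among them H3-7, itself an H3 histone gene. The H4 genes differed from the rest, with a median of 2 mismatches against 0 in each other family. The sites below are those of the genes with the highest levels in each family and of the genes that moved, with the 16 bases of the stem-loop in capitals:
HIST2H2BE (H2B, chr1:149886181-149886210, minus strand): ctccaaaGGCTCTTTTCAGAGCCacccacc
HIST2H2BF (H2B, chr1:149811878-149811907, minus strand): ccccaaaGGCTCTTTTCAGAGCCacttcag
HIST1H2BK (H2B, chr6:27146359-27146388, minus strand): ccccaaaGGCTCTTTTAAGAGCCacttaaa
HIST1H2AC (H2A, chr6:26124662-26124691, plus strand): acccaaaGGCTCTTTTCAGAGCCcccctac
HIST1H1C (H1, chr6:26055737-26055766, minus strand): cccaaaaGGCTCTTTTCAGAGCCaccactg
HIST1H3H (H3, chr6:27810509-27810538, plus strand): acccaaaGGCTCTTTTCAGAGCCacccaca
HIST2H4B (H4, chr1:149860762-149860791, minus strand): tcccaaaGGCCCTTTTTAGGGCCgaccact
HIST4H4 (H4, chr12:14770717-14770746, minus strand): tccaaaaGGCCCTTTTCAGGGCCcccaaac
HIST1H4H (H4, chr6:26285124-26285153, minus strand): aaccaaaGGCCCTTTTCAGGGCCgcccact
HIST1H4E (H4, chr6:26204994-26205023, plus strand): aatcaaaGGCCCTTTTCAGGGCCgcccaca
HIST1H1E (H1, chr6:26157088-26157117, plus strand): acccaaaGGCTCTTTTCAGAGCCacccacc
HIST2H2BE, HIST2H2BF, HIST1H2AC, HIST1H1C, HIST1H3H and HIST1H1E share the same 16 letters, and so do HIST4H4, HIST1H4H and HIST1H4E among the H4 genes.

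The members lie in a few places, 34 on chromosome 6, 16 on chromosome 1 and 1, HIST4H4, on chromosome 12. Of the 47 coding members, 17 have an annotated transcript that runs over 100 bases past the stem-loop in GENCODE v44 or RefSeq, and 30 have none. The remaining 4, HIST2H2BA, HIST2H2BB, HIST2H2BC and HIST2H2BD, are pseudogenes by annotation although their symbols do not say so. The longer transcripts differ greatly in kind. HIST2H2BE has a single exon that goes on for 1729 bases beyond the stem-loop, while those of HIST2H2BF, HIST1H2BC and HIST1H4H have further exons and end 29196, 37155 and 7522 bases downstream of it. Compared as whole spans with introns, another annotated gene overlaps 20 of the 51 members on the same strand. Among these are HIST2H2BF, HIST1H2AC, HIST1H4E and HIST1H1E. On the other strand a gene overlaps 8 members, among them HIST2H2BF, HIST1H4H, HIST1H2BG and HIST1H2BD. HIST2H2BE and HIST4H4 are overlapped on neither strand. How much of the overlap lies in exons was not counted, and reads in shared exon bases cannot be told apart.

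The histone genes were measured at low levels, and a few genes held most of the signal. Together they made up 0.0416% to 0.0652% of the counts of a library. HIST2H2BE, an H2B gene, took 21.6% of the members' summed CPM, and the top 5 genes (HIST2H2BE, HIST1H1C, HIST1H2AC, HIST1H2BK and HIST2H2AA4) took 57.4%. A mean above 5 CPM was reached by 19 of the 51 members, and 17 were under 1 CPM. Many genes known as S phase histones were close to 0: HIST1H3B, an H3.1 gene, had 1.0 to 6.0 counts, HIST1H4C, an H4 gene, 0 to 5.8, and HIST1H3C, HIST1H3F and HIST1H3G had 0 counts in every library.

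Genes with a longer annotated transcript stood higher. They were 17 of the 47 coding members and held 69.4% of the members' summed CPM, against 29.5% for the 30 genes that end at the stem-loop only and 1.13% for the 4 pseudogenes. Their median was 13.96 CPM against 1.21 CPM, and 13 of 17 against 6 of 30 were above 5 CPM. Per kilobase of the longest GENCODE transcript the medians were 6.85 and 2.56 CPM, a smaller gap than in CPM. The ranges overlapped widely. HIST1H1C (the linker histone H1.2), with no longer transcript annotated, had the highest level per length at 90.5 CPM per kb, followed by HIST1H2BK at 62.9, HIST2H2AA4 at 54.9 and HIST2H2BE at 51.7. Of the 23 coding symbols that did not reach the count limit, 1 has a longer transcript. The part of poly(A) selection in these levels was not tested, and of 10 RNAs without a poly(A) tail that were listed as a check, 0 matched a symbol of the table used here, so the check could not be made.

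**Figure D1:**
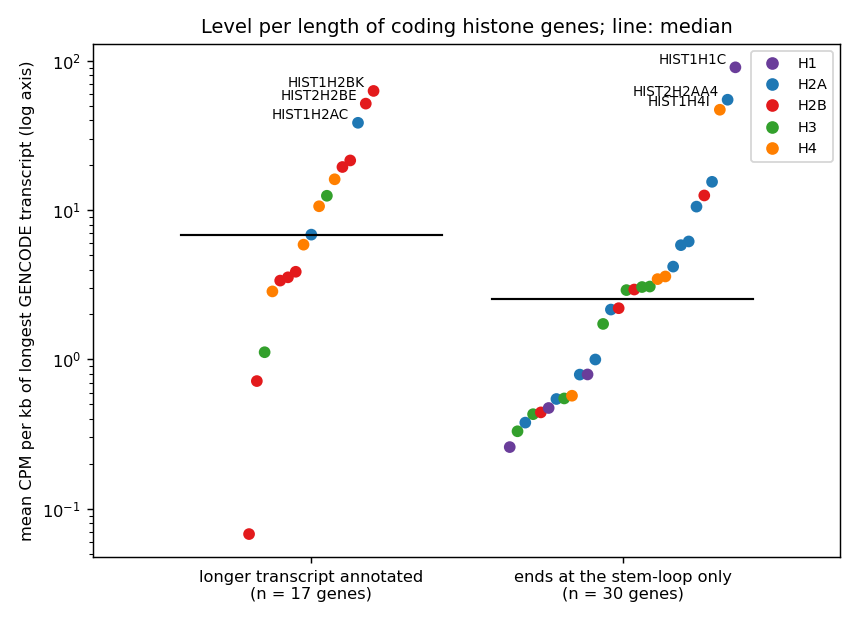
Mean level of each coding histone gene over the 12 libraries, in CPM per kilobase of its longest GENCODE transcript on a log axis, with the genes that have an annotated transcript past the stem-loop on the left and those without on the right. Points are genes coloured by family, and lines are the medians (6.85 and 2.56 CPM per kb). HIST1H1C, on the right, is the highest point of all.

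Many of the genes stand in head-to-head pairs that share the DNA between their starts. There were 15 pairs among the 75 symbols whose starts lie within 500 bases on opposite strands, and in 12 both genes were members. HIST2H2BE and HIST2H2AC, 236 bases apart, were at 51.7 and 0.791 CPM per kb, a 65.4-fold difference in level per length. HIST1H2BC and HIST1H2AC, 219 bases apart, differed 9.95-fold, in favour of the H2A gene, and HIST3H2A and HIST3H2BB, 230 bases apart, 9.57-fold. HIST1H2AD and HIST1H2BF were close to equal, at 2.158 and 2.204 CPM per kb.

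Promoters were available from RefSeq (GRCh38.p14, 300 bases around each start) as 50 entries for 46 members. The octamer ATTTGCAT, on either strand, was in 8 of 13 entries of H2A genes (61.5%) and 10 of 15 of H2B genes (66.7%), in 1 of 10 of H3 genes, and in 0 of the H1 and H4 genes, against 1.77% of all 35116 promoters. The H3 entry is an upstream start of HIST1H3D with the same bases as the promoter of HIST1H2AD, and its nearer entry lacks the octamer. HIST1H2BK is in the H2B count with overlapping entries. In cells the octamer is bound by POU2F1, also called OCT1, which is best known for driving H2B genes in S phase. CCAAT was in all entries of H1, H2A, H2B and H3 genes and in 12.5% of the H4 entries, against 34.6% of all promoters, and TATAAA in 69.2% of H2A, 73.3% of H2B, 80.0% of H3, 37.5% of H4 and 25.0% of H1 entries against 11.5%. The promoters of HIST2H2BE and HIST2H2BF are printed because these H2B genes carry the calls described next, with the octamer in capitals. A match is a match of letters only.
HIST2H2BE (chr1:149886633-149886932, minus strand): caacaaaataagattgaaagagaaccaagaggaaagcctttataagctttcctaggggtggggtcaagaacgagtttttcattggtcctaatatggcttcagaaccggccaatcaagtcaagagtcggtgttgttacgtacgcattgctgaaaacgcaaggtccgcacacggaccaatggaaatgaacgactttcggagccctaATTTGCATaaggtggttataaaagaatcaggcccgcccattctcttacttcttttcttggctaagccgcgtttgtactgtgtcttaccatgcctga
HIST2H2BF (chr1:149812321-149812620, minus strand): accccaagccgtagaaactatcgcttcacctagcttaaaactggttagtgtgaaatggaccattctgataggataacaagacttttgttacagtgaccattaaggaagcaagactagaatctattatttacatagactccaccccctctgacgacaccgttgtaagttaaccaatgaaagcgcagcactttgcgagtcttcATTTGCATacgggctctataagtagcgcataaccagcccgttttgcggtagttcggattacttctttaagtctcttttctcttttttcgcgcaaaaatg
Both hold the octamer and CCAAT on a strand, and TATAAA is in the first only.

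The response to DHT of the control line was the first comparison. Of the 51 members 41 had enough counts to be tested and 10 did not (HIST1H1T, HIST1H2AJ, HIST1H2AL, HIST1H2BE, HIST1H2BO, HIST1H3A, HIST1H3B, HIST1H3J, HIST1H4B and HIST2H2BA). Of the 41, 34 had at least 10 counts in every library of all 4 groups. Calls required both an adjusted p no higher than 0.05 and a change of 1.5-fold or more. In sh_scramble 1 member was called higher and 2 lower with DHT, where 5.45% of all 15419 genes tested were called higher and 6.45% lower (11.9% in all). The member called higher, HIST1H1E, had at least 10 counts in every library of sh_scramble +DHT alone. Its call also depended on single libraries, so it supports nothing about the family. The median log2 fold change of the 41 members was -0.01, as it was of all genes tested, with 19 members above 0, where 48.4% of all genes were. On the adjusted p alone 1 member was higher, where 14.4% of all genes were. With the replicate number as a block 4 members were higher, and with DESeq2 3.

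HIST2H2BF, an H2B gene, fell with DHT. It was at 26.9, 23.1 and 26.4 CPM in sh_scramble -DHT and at 15.7, 16.8 and 13.8 in sh_scramble +DHT. In sh_TMEFF2 it was at 27.5, 29.9 and 23.9 CPM without DHT and at 18.4, 18.3 and 17.2 with DHT. All 6 libraries with DHT lay below all 6 without it. The log2 fold change was -0.72 ± 0.11 (SE, n = 3 against 3, adjusted p = 0.00033, edgeR's quasi-likelihood test) in sh_scramble and -0.60 ± 0.11 (adjusted p = 0.0041) in sh_TMEFF2, and the difference between the lines was 0.13 ± 0.15 (adjusted p = 0.74). In sh_TMEFF2 the fold lay close to the limit of 1.5: the adjusted p stayed under 0.05 in all 22 alternatives, while 7 of them put the fold under the limit, among them leaving out sh_TMEFF2 -DHT 1 or 2 or sh_TMEFF2 +DHT 3 (-0.58, -0.52 and -0.56).

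HIST1H4E, an H4 gene with few counts, was also called lower in sh_scramble. It had 34.2, 54.8 and 36.5 counts without DHT and 26.5, 16.9 and 16.6 with DHT, and these groups did not overlap (log2 fold change -1.01 ± 0.32, adjusted p = 0.032). Leaving out sh_scramble -DHT 2, its highest library, gave -0.72 and an adjusted p of 0.14, and the call was also lost without sh_scramble +DHT 2 (-0.88, adjusted p = 0.11) or 3 (-0.90, adjusted p = 0.10). In sh_TMEFF2 it had 34.7, 40.9 and 39.4 counts without DHT and 30.3, 25.1 and 17.5 with DHT, without overlap (-0.69 ± 0.32, adjusted p = 0.18).

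HIST1H1E, which encodes the linker histone H1.4, was the member called higher in sh_scramble, and the call depended on single libraries. It had 12.8, 5.9 and 10.0 counts without DHT and 44.7, 20.1 and 12.9 with DHT (log2 fold change 1.47 ± 0.47, adjusted p = 0.034). Without sh_scramble +DHT 1, its highest library, the value was 0.80 and the adjusted p 0.21, and the call was also lost without sh_scramble -DHT 1 (1.68, adjusted p = 0.057), 2 (1.26, adjusted p = 0.11) or 3 (1.51, adjusted p = 0.078). HIST1H1E reached 10 counts in all libraries of sh_scramble +DHT alone, the group where it was highest. In sh_TMEFF2 it had 3.9, 7.8 and 7.8 counts without DHT and 7.9, 9.9 and 11.9 with DHT.

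The response to DHT of the line with TMEFF2 targeted was compared in the same way. In sh_TMEFF2 0 members were called higher and 1, HIST2H2BF, lower, where 3.28% of all genes were called higher and 1.60% lower (4.88% in all). On the adjusted p alone 0 were higher and 4 lower (HIST2H2BE, HIST2H2BF, HIST1H2AC and HIST1H4H), where 7.84% of all genes were higher and 5.21% lower. HIST2H2BF passed the adjusted p in all 22 alternatives, while each of the other 3 missed it when single libraries were left out, so that 1 member was lower without sh_TMEFF2 -DHT 2 or sh_TMEFF2 +DHT 3 and 2 were without sh_TMEFF2 +DHT 1. The median of the 41 members was -0.23 against -0.02 for all genes, and 12 members were above 0, where 46.7% of all genes were. The median also rested on single libraries, at -0.11 without sh_TMEFF2 -DHT 2, -0.12 without sh_TMEFF2 +DHT 1 and -0.35 without sh_TMEFF2 +DHT 2. In 10 of 41 members all 3 libraries with DHT lay below all 3 without it, and in 1 above, where 15.6% of all genes did so in each direction. The 6 tested H3 genes all had negative values, from -0.74 to -0.22, and 0 of them passed the adjusted p. HIST2H3A and HIST2H3C among them carry the same counts. Of all 15419 genes, 8223 were below 0 in this comparison. In sh_scramble 5 of the 6 H3 genes were below 0 too, and the 6 ranged from -0.69 to 0.14.

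HIST2H2BE fell with DHT in sh_TMEFF2 and, in edgeR's test without a block, was at a positive value not past the adjusted p in sh_scramble. It was at 114, 127 and 105 CPM in sh_scramble -DHT and at 151, 145 and 133 in sh_scramble +DHT. In sh_TMEFF2 it was at 96.9, 145 and 116 CPM without DHT and at 75.2, 89.1 and 83.0 with DHT. The 3 libraries of sh_TMEFF2 +DHT were the lowest of all 12, and the 3 of sh_scramble +DHT were above all of sh_scramble -DHT. The log2 fold change was 0.31 ± 0.13 in sh_scramble (adjusted p = 0.086) and -0.53 ± 0.13 in sh_TMEFF2 (adjusted p = 0.016, below the fold limit). The value in sh_TMEFF2 missed the adjusted p without sh_TMEFF2 -DHT 2 (-0.37, adjusted p = 0.064), sh_TMEFF2 +DHT 1 (-0.47, adjusted p = 0.051) or sh_TMEFF2 +DHT 3 (-0.53, adjusted p = 0.061). The difference between these responses was -0.85 ± 0.18 (adjusted p = 0.017, edgeR's quasi-likelihood test), and it was the 1 interaction called among the members, where 1.65% of all genes were called higher and 3.29% lower on the adjusted p (4.94% in all). It passed in all 21 alternatives, with values from -0.98 to -0.68 and adjusted p from 0.00022 to 0.048.

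HIST2H2BE lies at chr1:149884459-149886682 on the minus strand (GRCh38), has 1 exon and encodes an H2B. Its head-to-head partner HIST2H2AC had only 2.1 to 14.4 counts in a library, and its interaction was 0.73 ± 0.79 (adjusted p = 0.71). With so few counts a response like that of HIST2H2BE was not detectable in HIST2H2AC.

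HIST4H4, an H4 gene away from the other clusters, had the second smallest p for the interaction and did not pass the adjustment. It was at 5.22, 5.05 and 5.08 CPM in sh_scramble -DHT and at 7.18, 9.02 and 5.89 in sh_scramble +DHT, without overlap. This response was 0.53 ± 0.19 (adjusted p = 0.055), and it was called higher without sh_scramble +DHT 3 (0.66, adjusted p = 0.026). In sh_TMEFF2 it was at 5.41, 5.21 and 4.97 CPM without DHT and at 4.27, 5.16 and 3.24 with DHT, where the groups overlapped. The interaction was -0.83 ± 0.27 (adjusted p = 0.11, and 0.055 to 0.45 over 21 alternatives).

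The next 3 members by p for the interaction, HIST1H4H (H4), HIST1H2BG (H2B) and HIST1H2BD (H2B), had values of -0.47 ± 0.19, -0.68 ± 0.30 and -0.47 ± 0.23, and did not pass the adjustment either (adjusted p = 0.22, 0.26 and 0.32). HIST1H4H was at 13.7, 18.6 and 13.7 CPM in sh_TMEFF2 -DHT and at 11.1, 11.3 and 9.22 in sh_TMEFF2 +DHT (log2 fold change -0.54 ± 0.14, adjusted p = 0.022), which missed the adjusted p without sh_TMEFF2 -DHT 2 (-0.38, adjusted p = 0.094) or sh_TMEFF2 +DHT 3 (-0.44, adjusted p = 0.11), with the 6 libraries alone (0.067) and with the first (0.073) or second column (0.061). Without sh_TMEFF2 -DHT 1 or 3 it passed the fold limit too (-0.61 and -0.60). In sh_scramble it was at 11.95, 13.8 and 12.5 CPM without DHT and at 12.2, 12.8 and 11.5 with DHT, and the groups overlapped. Over the members the interaction had a median of -0.19 against 0.01 for all genes, and 12 of 41 were above 0, where 50.9% of all genes were. That median was -0.07 without sh_TMEFF2 -DHT 2 or sh_TMEFF2 +DHT 1, -0.09 without sh_scramble -DHT 1 and -0.33 without sh_TMEFF2 +DHT 2. It was -0.11 with the second column (36 members) and -0.13 with scaling by library size only, where that of all genes was 0.07.

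HIST1H2BG was at 5.74, 10.4 and 6.77 CPM in sh_TMEFF2 -DHT and at 4.76, 5.80 and 4.496 with DHT, and the groups overlapped (-0.60 ± 0.21, adjusted p = 0.082). It was called lower with the second column (-0.72, adjusted p = 0.044) and without sh_TMEFF2 -DHT 1 (-0.77, adjusted p = 0.045). HIST1H2BD was at 14.2, 20.6 and 15.1 CPM without DHT and at 11.3, 12.7 and 12.3 with DHT, without overlap (adjusted p = 0.083). In sh_scramble these genes had log2 fold changes of 0.07 ± 0.21 and 0.01 ± 0.16. The library sh_TMEFF2 -DHT 2 was the highest of its group for HIST2H2BE, HIST2H2BF, HIST1H4H, HIST1H2BG and HIST1H2BD.

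**Figure D2:**
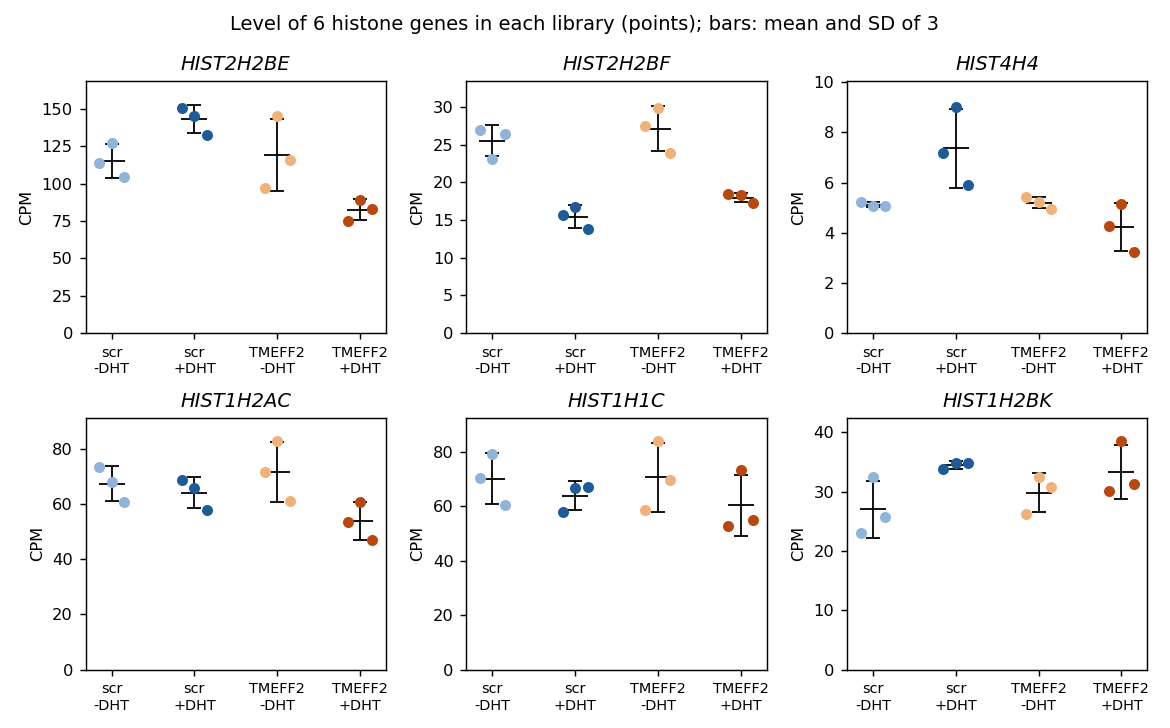
Level in CPM, from 0, of HIST2H2BE, HIST2H2BF, HIST4H4, HIST1H2AC, HIST1H1C and HIST1H2BK in each of the 12 libraries (points), with the mean and SD of the 3 libraries of each group (scr is sh_scramble, TMEFF2 is sh_TMEFF2). HIST2H2BF is lower with DHT in both lines, while HIST2H2BE is highest in sh_scramble +DHT and lowest in sh_TMEFF2 +DHT.

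Without DHT no difference between the lines was detected in these genes. Of the 41 members 0 were called by edgeR's quasi-likelihood test, where 0.571% of all genes were, and 1 was higher and 1 lower at an unadjusted p under 0.05. Of all 15419 genes, 1076 were higher and 1004 lower at that p. DESeq2 and limma-voom also called 0. The median log2 difference, sh_TMEFF2 against sh_scramble, was 0.03, with 22 of 41 members above 0, where 49.1% of all genes were. It was -0.06 with 14 above 0 without sh_TMEFF2 -DHT 2. The median was 0.09 with 29 above 0 without sh_scramble -DHT 2, and 0.08 with 27 above 0 without sh_TMEFF2 -DHT 1.

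With DHT 3 members were called lower in sh_TMEFF2 than in sh_scramble and 0 higher, where 3.74% of all genes were called lower and 3.03% higher (6.77% in all). They were HIST2H2BE (-0.80 ± 0.13, adjusted p = 0.0010, edgeR's quasi-likelihood test), HIST4H4 (-0.80 ± 0.19, adjusted p = 0.012) and HIST1H1E (-1.503 ± 0.46, adjusted p = 0.044). HIST1H1E had at least 10 counts in every library of sh_scramble +DHT alone, the group where it was highest. Its call was lost in most alternatives and is no support, and 2 members remain without it. This comparison shares its libraries with the DHT responses above and is not independent of them. HIST2H2BE passed in all 22 alternatives. HIST4H4 was lost without sh_scramble +DHT 2 (-0.62, adjusted p = 0.058) or sh_TMEFF2 +DHT 3 (-0.63, adjusted p = 0.052). It was also lost with the second column only (-0.73, adjusted p = 0.084). HIST1H1E was lost in 15 of 19 alternatives, with -0.82 and an adjusted p of 0.26 without sh_scramble +DHT 1. The median of the members was -0.16 against 0.00 for all genes, with 11 of 41 above 0, where 50.6% of all genes were. It was -0.10 without sh_TMEFF2 +DHT 1 (18 above 0) and -0.09 without sh_TMEFF2 +DHT 3 (14 above 0), and -0.11 with scaling by library size only (14 above 0), where that of all genes was 0.06.

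HIST1H2AG and HIST1H2BJ, a head-to-head pair 248 bases apart, had positive differences between the lines that did not pass the adjusted p. HIST1H2AG, an H2A gene, was at 0.53 ± 0.18 without DHT (adjusted p = 0.20), with groups that overlapped, and at 0.48 ± 0.18 with DHT (adjusted p = 0.086), with groups that did not. HIST1H2BJ, an H2B gene, was at 0.23 ± 0.38 without DHT (adjusted p = 0.87) and 0.99 ± 0.38 with DHT (adjusted p = 0.096), and the groups overlapped in both. HIST1H2BJ passed without sh_scramble +DHT 2 (1.39, adjusted p = 0.045) and without sh_TMEFF2 +DHT 1 (1.26, adjusted p = 0.046). These were named after their values were seen.

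**Figure D3:**
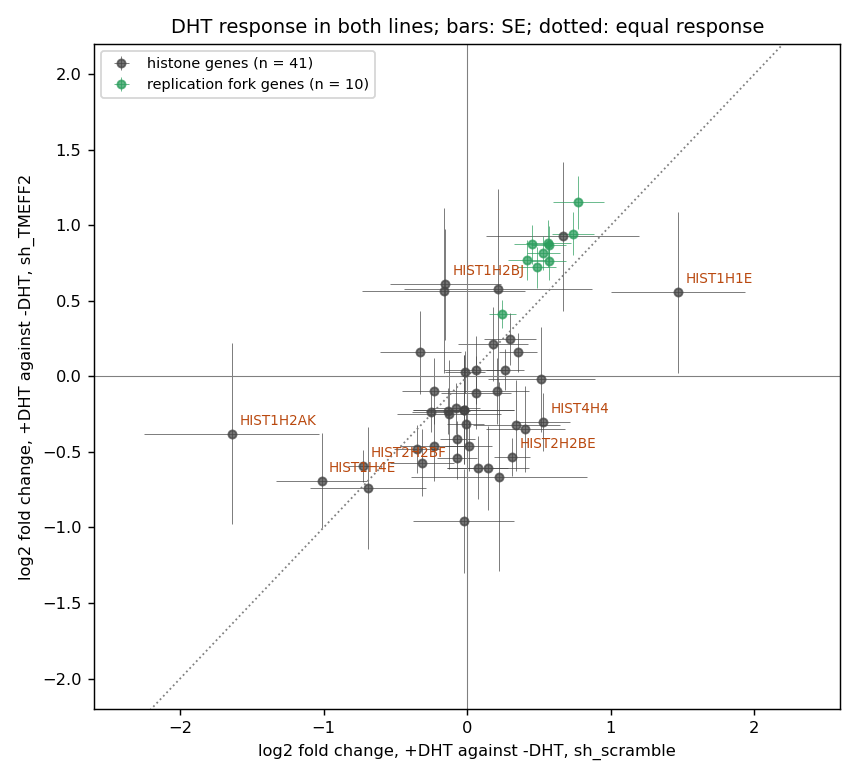
Log2 fold change with DHT in sh_scramble (horizontal axis) and in sh_TMEFF2 (vertical axis) for the 41 tested histone genes and the 10 replication fork genes. Bars are standard errors of edgeR's fit, and the dotted line marks equal responses. The fork genes are all above 0 in both lines, whereas the histone genes lie around 0 in sh_scramble and mostly below 0 in sh_TMEFF2.

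The most abundant members gave few calls. HIST1H1C, the leading H1 gene, was at 70.3, 79.3 and 60.5 CPM in sh_scramble -DHT and at 57.8, 66.7 and 67.0 with DHT, then at 58.5, 83.9 and 69.5 in sh_TMEFF2 -DHT and at 52.6, 73.3 and 54.9 with DHT, and all groups overlapped. HIST1H2AC, the most abundant H2A gene, was at 73.2, 67.9 and 60.6 CPM in sh_scramble -DHT and at 68.7, 65.6 and 57.9 with DHT (-0.07 ± 0.12). In sh_TMEFF2 it was at 71.6, 82.6 and 60.9 CPM without DHT and at 53.3, 60.7 and 47.1 with DHT (log2 fold change -0.42 ± 0.12, adjusted p = 0.042, below the fold limit), and 9 of 22 alternatives lost this, with values of -0.30 (adjusted p = 0.17) without sh_TMEFF2 -DHT 2 and -0.32 (adjusted p = 0.19) without sh_TMEFF2 +DHT 3. HIST1H2BK, an H2B gene, was at 23.0, 32.4 and 25.7 CPM in sh_scramble -DHT and at 33.7, 34.8 and 34.8 with DHT, without overlap (0.35 ± 0.13, adjusted p = 0.065), and at 26.2, 32.4 and 30.8 in sh_TMEFF2 -DHT and 30.1, 38.5 and 31.2 with DHT, with overlap.

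HIST1H3H, the most abundant H3 gene, was at 15.8, 17.0 and 19.3 CPM in sh_scramble -DHT and at 13.2, 14.4 and 16.2 with DHT, then at 14.7, 17.2 and 17.5 in sh_TMEFF2 -DHT and at 11.7, 15.5 and 14.7 with DHT, and the groups overlapped. HIST1H3E, the next H3 gene, was at 3.41, 3.91 and 3.06 CPM, then 2.22, 3.19 and 2.96 CPM in sh_scramble, and at 3.55, 4.01 and 2.68 CPM, then 2.34, 2.69 and 1.88 CPM in sh_TMEFF2, each time without DHT first. HIST1H4I, an H4 gene, was at 15.9, 18.5 and 16.2 CPM, then 20.8, 21.0 and 18.9 CPM in sh_scramble, and at 15.7, 21.0 and 18.8 CPM, then 16.1, 22.1 and 19.0 CPM in sh_TMEFF2. In none of these 3 genes did a comparison pass the adjusted p.

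Near-identical copies were uncertain one by one. HIST2H2AA3 and HIST2H2AA4, copies of an H2A gene on chromosome 1, were at 12.7 and 19.6 CPM in sh_scramble -DHT 1 but at 4.63 and 37.5 in sh_scramble -DHT 3. In sh_TMEFF2 -DHT they were at 13.2 and 17.6, 2.29 and 51.5, and 11.8 and 29.7 CPM. HIST2H2AA4 alone was at 31.7 CPM in sh_scramble -DHT 2, at 16.1, 35.0 and 30.2 in sh_scramble +DHT and at 22.2, 30.3 and 30.5 in sh_TMEFF2 +DHT. Their sums were 38.0 ± 5.13, 36.9 ± 5.36, 41.98 ± 11.5 and 33.4 ± 6.47 CPM (mean ± SD, n = 3) in the control line without and with DHT and then in sh_TMEFF2 without and with DHT. HIST2H3A and HIST2H3C, H3 copies, had the same count in each library, so they carry 1 measurement. HIST2H4B, an H4 gene and the most abundant of its family, was at 30.6, 29.9 and 29.8 CPM, then 28.0, 33.9 and 27.6 CPM in sh_scramble, and at 21.7, 22.7 and 28.6 CPM, then 20.7, 24.2 and 29.6 CPM in sh_TMEFF2. With its copy HIST2H4A it summed to 46.7 ± 2.71, 47.1 ± 1.76, 40.8 ± 5.98 and 40.1 ± 4.87 CPM (mean ± SD, n = 3) in the order of groups given above. None of the 3 sums passed the adjusted p in any of the 5 comparisons. The sums were chosen after the data had been seen.

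**Figure D4:**
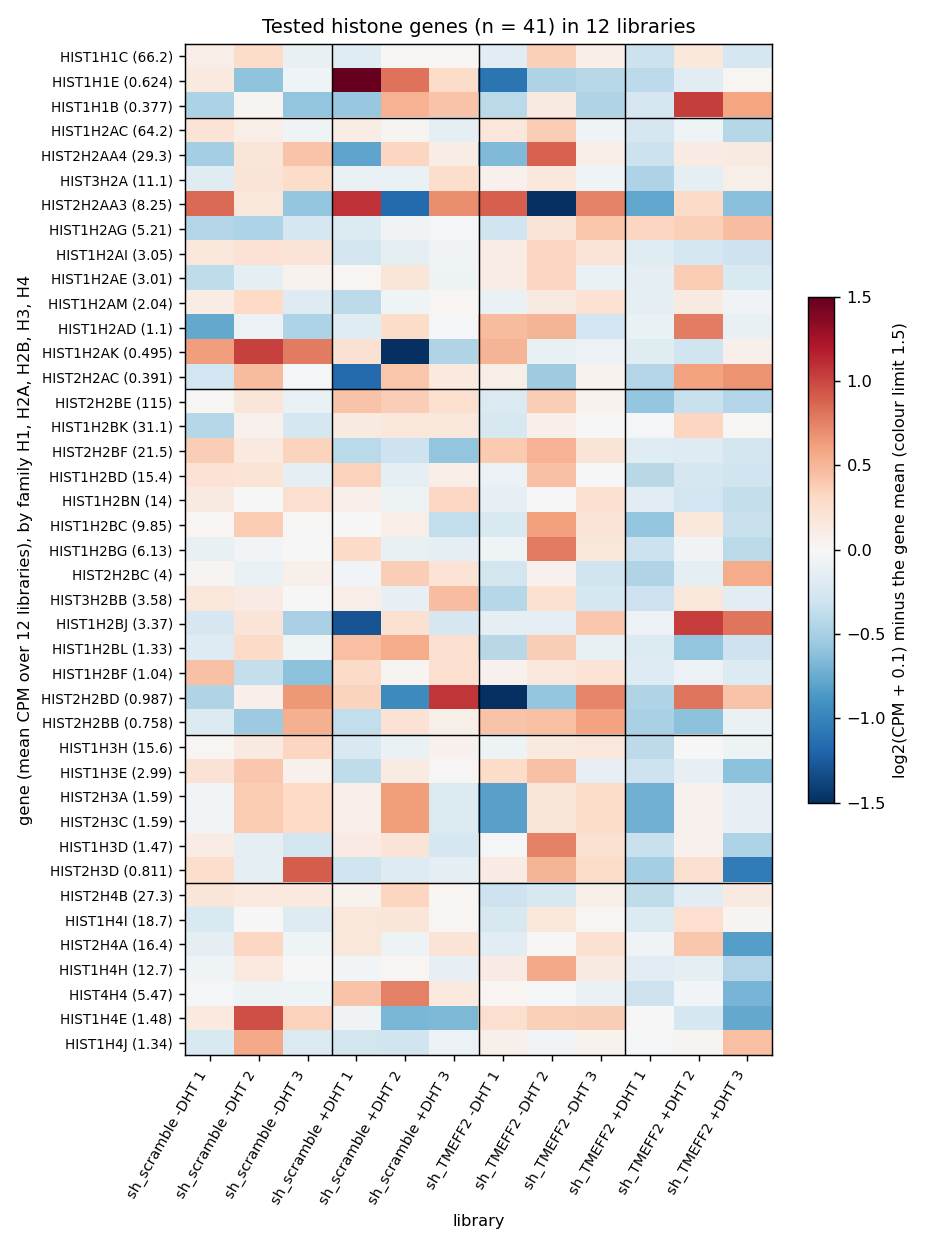
Each of the 41 tested histone genes (rows, by family and then by mean CPM, which stands after the name) in each library (columns), as log2(CPM + 0.1) minus the gene's mean over the 12 libraries, with colours limited at 1.5. HIST2H2AA3 and HIST2H2AA4 often deviate in opposite directions, and HIST2H3A and HIST2H3C have the same colours throughout.

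Summed over a family, which does not depend on how reads were split between copies, the levels were as follows. All 51 members together were at 546 ± 32.7, 561 ± 11.2, 564 ± 81.9 and 460 ± 52.9 CPM (mean ± SD, n = 3) in the same order of groups. The library sh_TMEFF2 -DHT 2 stood highest of all at 651 CPM and sh_TMEFF2 +DHT 1 lowest at 416. The groups of sh_TMEFF2 overlapped, and their log2 ratio, with DHT to without, was -0.29, or -0.18 without sh_TMEFF2 -DHT 2. The H2B genes were at 231 ± 15.1, 256 ± 10.0, 241 ± 40.0 and 187 ± 16.9 CPM, and the log2 ratio of sh_TMEFF2 to sh_scramble with DHT was -0.45 over all 17 and -0.11 with HIST2H2BE left out. H2A was at 132 ± 3.39, 127 ± 3.06, 142 ± 21.3 and 114 ± 13.0 CPM, H4 at 85.3 ± 6.36, 89.2 ± 4.58, 83.1 ± 8.001 and 76.7 ± 8.78, H1 at 70.9 ± 9.28, 65.7 ± 4.54, 71.5 ± 13.0 and 61.4 ± 11.7, and H3 at 27.4 ± 2.24, 23.5 ± 2.03, 26.4 ± 3.41 and 21.6 ± 3.22.

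**Figure D5:**
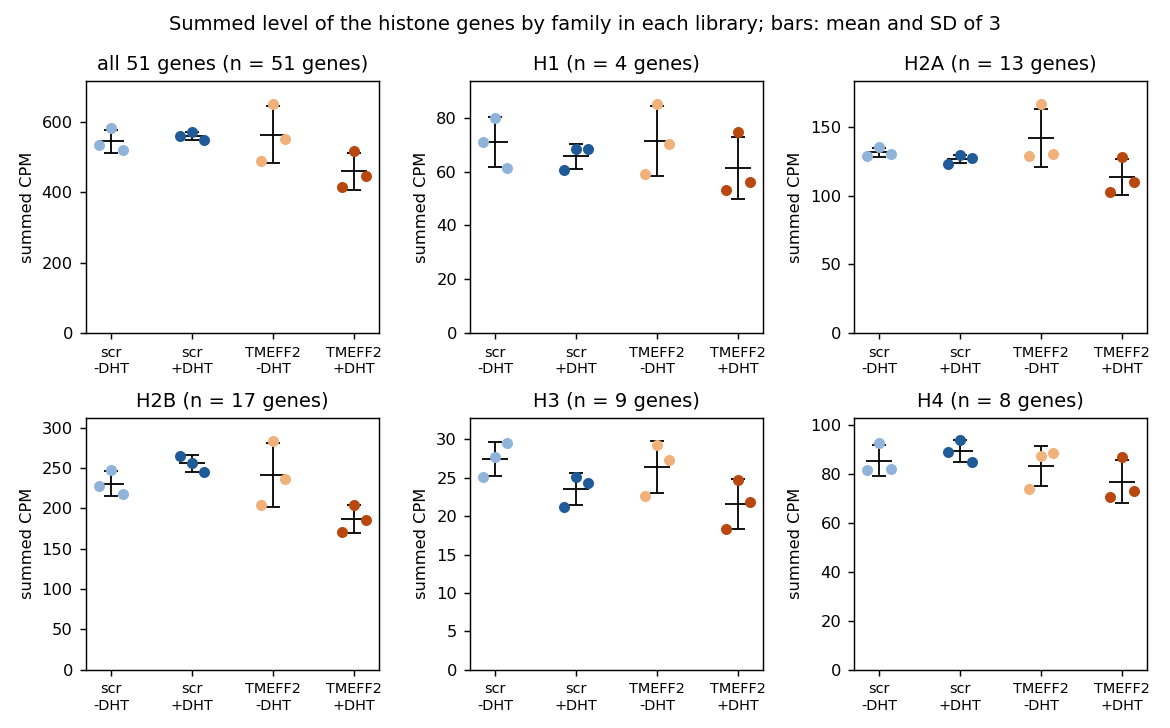
Summed CPM, from 0, of all 51 histone genes and of each family in each of the 12 libraries (points), with the mean and SD of the 3 libraries of a group (scr is sh_scramble, TMEFF2 is sh_TMEFF2). The H2B genes in sh_TMEFF2 +DHT (170.8, 204.5 and 185.3 CPM) lie below those in sh_scramble +DHT (245.4 to 265.4 CPM).

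The genes that end at the stem-loop only and those with a longer transcript were described separately. The 17 with a longer transcript summed to 381 ± 21.4, 399 ± 13.8, 390 ± 48.8 and 309 ± 29.6 CPM in the 4 groups, and the 30 without to 159 ± 13.0, 155 ± 9.03, 169 ± 32.97 and 146 ± 23.3. The median log2 fold change with DHT in sh_TMEFF2 was -0.31 over the 16 tested genes of the first set and -0.23 over the 22 of the second. By position, the 13 tested genes of the first stretch on chromosome 6 (chr6:26020451-26285638) had a median of -0.46 and the 12 of the second (chr6:27125897-27893891) of -0.02, beside -0.22 for the 12 near chr1:149782689-149887411. These medians describe the genes and were not tested.

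The 10 replication fork genes listed, which are also active in S phase, all had positive values with DHT in both lines. Of the 10 replication fork genes (PCNA, the MCM2 to MCM7 helicase genes, CDC45, GINS2 and RFC4), 9 in sh_scramble and all 10 in sh_TMEFF2 had an adjusted p of at most 0.05 and a positive value, where 14.4% and 7.84% of all genes did. With the fold limit added, 2 were called higher in sh_scramble and 9 in sh_TMEFF2, where 5.45% and 3.28% of all genes were. The median log2 fold changes of the 10 were 0.55 and 0.84, beside -0.01 and -0.23 for the histone members. PCNA, the sliding clamp of the DNA polymerases, was at 127, 160 and 153 CPM in sh_scramble -DHT and at 180, 217 and 206 with DHT, then at 124, 132 and 176 in sh_TMEFF2 -DHT and at 244, 257 and 290 with DHT. The groups did not overlap in either line. The interaction was called in 0 of the 10, where 4.94% of all genes were called (1 at an unadjusted p under 0.05, higher in sh_TMEFF2). Between the lines with DHT, 5 of the 10 passed the adjusted p higher in sh_TMEFF2, where 6.93% of all genes did, and in all 10 the groups did not overlap, where 15.5% of all genes lay higher in this way. Their median was 0.41, beside -0.16 for the histone members.

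Among the 16 genes that make and trim histone messages, SLBP, the stem-loop binding protein, rose in both lines. It was at 67.5, 82.0 and 70.9 CPM in sh_scramble -DHT and at 105, 111 and 95.1 with DHT (log2 fold change 0.50 ± 0.09, adjusted p = 0.0012, below the fold limit). In sh_TMEFF2 it was at 63.4, 62.2 and 68.5 CPM without DHT and at 92.9, 105 and 107 with DHT (0.65 ± 0.09, adjusted p = 0.00096). NPAT, the coactivator of histone genes, was at 0.04 ± 0.09 and 0.20 ± 0.09 and did not pass. POU2F1, the octamer binding factor, fell in sh_scramble (-0.61 ± 0.14, adjusted p = 0.0056), a fold that went under the limit without sh_scramble -DHT 2 or sh_scramble +DHT 1. In sh_TMEFF2 the lowest value of the 16 genes was -0.12. In all, 1 of the 16 passed the adjusted p upward and 1 downward in sh_scramble, and 2 upward and 0 downward in sh_TMEFF2. Of all genes 14.4% passed upward and 12.6% downward in sh_scramble, and 7.84% and 5.21% in sh_TMEFF2.

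Of the 7 genes of histone message decay and export, ZCCHC6, also called TUT7, a uridylyltransferase that tags RNAs for decay, moved most. It was at 45.4, 41.4 and 44.2 CPM in sh_scramble -DHT and at 82.7, 83.7 and 77.4 with DHT (0.90 ± 0.07, adjusted p = 2.9e-06). In sh_TMEFF2 it was at 43.8, 50.2 and 42.2 CPM without DHT and at 46.5, 47.9 and 48.2 with DHT, and these groups overlapped. The interaction was -0.83 ± 0.10 (adjusted p = 0.00081, edgeR's quasi-likelihood test). It was the 1 interaction called among the 7, where 4.94% of all genes were called. UPF1, a helicase of message decay, was the other gene of this list to pass the adjusted p in sh_scramble (0.21 ± 0.06, adjusted p = 0.028), and 0 of the 7 passed in sh_TMEFF2, where 14.4% of all genes passed upward in sh_scramble and 7.84% in sh_TMEFF2.

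The histone chaperones, which carry new histones to DNA, had positive values for the most part, 19 of 22 in sh_scramble and 18 of 22 in sh_TMEFF2. Of 22, 9 passed the adjusted p upward and 1 downward in sh_scramble, and 12 upward and 0 downward in sh_TMEFF2, beside 14.4% of all genes upward and 12.6% downward in sh_scramble and 7.84% and 5.21% in sh_TMEFF2. ASF1B, which hands H3 and H4 to the assembly factors, was at 0.59 ± 0.17 in sh_scramble (adjusted p = 0.022, and 0.052 to 0.090 without sh_scramble -DHT 1 or 3 or sh_scramble +DHT 2 or 3) and 1.01 ± 0.17 in sh_TMEFF2 (adjusted p = 0.0030), and CHAF1B, a subunit of the assembly factor CAF-1, at 0.42 ± 0.10 (adjusted p = 0.0088) and 0.82 ± 0.10 (adjusted p = 0.00061). NASP, a carrier of H3 and H4, was at 176, 200 and 182 CPM in sh_scramble -DHT and 191, 212 and 202 with DHT, and at 178, 160 and 192 in sh_TMEFF2 -DHT and 253, 262 and 284 with DHT, with an interaction of 0.47 ± 0.11 (adjusted p = 0.029) that 7 alternatives lost, among them leaving out sh_scramble -DHT 2, sh_scramble +DHT 1 or 3, sh_TMEFF2 -DHT 1 or 2, or sh_TMEFF2 +DHT 3 (adjusted p = 0.055 to 0.077). NAP1L1, a carrier of H2A and H2B, fell with DHT in sh_scramble (-0.65 ± 0.08, adjusted p = 5.9e-05) and was at 0.08 ± 0.08 in sh_TMEFF2, with an interaction of 0.73 ± 0.11 (adjusted p = 0.0024).

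Of the 12 replacement histones 11 were tested. In sh_scramble 2 passed the adjusted p upward and 1 downward, and in sh_TMEFF2 3 upward and 1 downward. Of all genes 14.4% passed upward and 12.6% downward in sh_scramble, and 7.84% and 5.21% in sh_TMEFF2. H2AFZ, the gene of H2A.Z, rose in both lines (0.42 ± 0.06, adjusted p = 0.00034, and 0.55 ± 0.06, adjusted p = 0.00042), and H3F3A, a gene of H3.3, fell in both (-0.21 ± 0.05, adjusted p = 0.0094, and -0.19 ± 0.05, adjusted p = 0.028), all below the fold limit. H2AFX, the gene of the DNA damage histone H2A.X, which also makes a stem-loop message, rose in sh_TMEFF2 (0.86 ± 0.20, adjusted p = 0.015), where it was at 49.4, 59.0 and 73.5 CPM without DHT and at 82.3, 122 and 126 with DHT. The adjusted p was 0.051 to 0.064 without sh_TMEFF2 -DHT 1 or 2 or without sh_TMEFF2 +DHT 2 or 3. Its value in sh_scramble was 0.27 ± 0.20 (adjusted p = 0.35), and the interaction was 0.59 ± 0.28 (adjusted p = 0.31). The interaction passed with the replicate number as a block (0.59, adjusted p = 0.0071).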

How the data were processed

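RNA-seq libraries of LNCaP cells (4 groups of 3) were sequenced as paired-end reads by the study. Per the labels and the study's methods, the authors removed reads that matched ribosomal, mitochondrial, phiX, poly-A or poly-C sequence, trimmed the rest with Trimmomatic, quantified transcripts of GRCh38 with kallisto 0.42.3 and summarised them by gene with an R package for transcript-level estimates. By the name of the deposited table, its values are TPM scaled to library size and transcript length. The deposited values are therefore estimated counts, with 2 columns for each library (24 in all, 0 without a sample). The library kit and any poly(A) selection are not given in the sources used here.

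Here the columns of a library were summed and rounded. Genes were filtered with filterByExpr (minimum count 10, total 15), which left 15419, scaled by TMM (factors 0.955 to 1.037), and tested with edgeR 4.0.16 in R 4.3.3 (quasi-likelihood test, 1 coefficient per group, all 12 libraries, Benjamini-Hochberg adjustment over all genes, common biological coefficient of variation 0.131). Calls needed an adjusted p of at most 0.05 and, except for the interaction, a fold of at least 1.5. CPM values use the TMM-scaled library sizes, and CPM per kilobase divides them by the longest GENCODE transcript, which for HIST1H2BK leaves out a longer one in RefSeq. On simulated counts for DHT in sh_TMEFF2 (15211 genes, 199 changed) the test recovered 73.9% of changes of fold 2, with 1 wrong call.

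The histone genes and the gene lists were chosen with earlier results of these data known. Values in each library are given for the most abundant pair of genes of each family, for the 3 highest and 3 lowest called members of each comparison, and for the 5 members of lowest interaction p. Genes outside these were named as members, when called, or as examples of a list. Alternatives were DESeq2 1.42.0, limma-voom (limma 3.58.1), other filters and scaling, the 6 libraries of a comparison alone, a single column per library, a replicate block, leaving out each library, and, added after the data had been seen, summed copies.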

Additional observations from a re-analysis of the deposited data

Results flagged for a closer look

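HIST2H2BE was singled out because its response to DHT differed between the lines in the test of the difference itself: 0.31 in sh_scramble and -0.53 in sh_TMEFF2, a difference of -0.85 ± 0.18 (log2, SE, adjusted p = 0.017, edgeR's quasi-likelihood test). In sh_scramble 3 of 3 libraries with DHT were above all those without it, and in sh_TMEFF2 3 of 3 were below. The cause was not tested.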

How the results depend on the processing

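Over the 41 members tested, 4270 values were computed under alternatives. Of these 4221 kept the call or its absence, 37 lost a call and 12 gained one, and 0 changed sign with a call. Most of the values belong to results without a call, which could not lose one, so the share kept does not measure how stable the calls were. Members that could be tested under an alternative only are not among them. Of the alternatives for summed levels, 366 in all, 355 moved by less than the spread. Counts of called members were small and moved under several alternatives. In sh_scramble, 1 higher with DHT became 0 with genes above 5 CPM only, limma-voom, the 6 libraries alone and either column alone. There 2 lower became 1 with genes above 5 CPM only, the 6 libraries alone and either column alone. HIST1H2AK (-1.64 ± 0.61, adjusted p = 0.064) gained a call as lower in sh_scramble with limma-voom (-2.09, adjusted p = 0.025). It did so too without sh_scramble +DHT 1 (-2.46, adjusted p = 0.030). It reached 10 counts in all libraries of sh_scramble -DHT alone, where it was highest, so these calls support nothing about the family. In sh_TMEFF2, 1 lower with DHT became 0 with DESeq2 and with the first column and 2 with the second. Between the lines with DHT, 3 lower became 1 with the second column. They became 2, without HIST1H1E, with DESeq2, limma-voom and the 6 libraries alone. Leaving out each library gave 0 to 2 higher and 1 to 4 lower in sh_scramble, and 0 to 3 lower in sh_TMEFF2. It gave 0 to 1 higher and 1 to 3 lower between the lines with DHT. Of the 41 members no more than 3 were then lower in sh_scramble, so the 4 include a member tested there only. The cause of these moves was not tested.

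With the replicate number as a block, 0 higher between the lines with DHT became 1 (HIST1H2BJ, 1.01, adjusted p = 0.035). HIST1H1E lost its call in that comparison (-1.42, adjusted p = 0.060), and interactions were gained by H2AFX (0.59, adjusted p = 0.0071), POU2F1 (0.51, adjusted p = 0.020) and CHAF1B (0.40, adjusted p = 0.048). CENPA was then called higher with DHT in sh_TMEFF2 (0.65, adjusted p = 0.011). On the adjusted p alone, the block moved the members higher with DHT in sh_scramble from 1 to 4. It moved those lower between the lines with DHT from 3 to 4. The labels do not say that a number marks a shared day or batch. Same-numbered libraries deviated together with r of -0.002 to 0.169, over 0.1 in 3 of 12 pairs, and in 10 of 12 a library correlated best with its own number, which is a hint from the data and not from the design.

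Without HIST2H2BE the summed level of all members was -0.14 between the lines with DHT and -0.19 for the interaction (log2), and that of H2B was -0.038 for DHT in sh_scramble, -0.11 between the lines with DHT and -0.19 for the interaction. Without HIST1H1C the H1 sum, then very low, was 1.07 and 0.38 for DHT in sh_scramble and sh_TMEFF2, -0.74 between the lines with DHT and -0.69 for the interaction. The H3 interaction was 0.11 with the second column, and H4 was 0.090 between the lines without DHT when HIST2H4B was left out. The members' median for DHT in sh_scramble, -0.01, was -0.08 with library size only, as it was for all genes, and 0.04 with the first column. Between the lines without DHT it was 0.09 over the 19 members above 5 CPM. Depth limits the 17 members under 1 CPM, and the deposited counts do not separate copies.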
